A study of Mus musculus with 6 samples.

Results

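The 10 genes described here encode the junctions of the intercalated disc, the step-like membrane contact at which neighbouring cardiomyocytes are joined end to end. They were chosen by name from the 24972 gene rows of the deposited table, and all 10 were present. These genes, and the lists set beside them below, were chosen with earlier results of these data known. The study compared RNA from cardiomyocytes of MX1gfp mice, which carry a green fluorescent protein reporter at the interferon-stimulated gene Mx1. In the vehicle group 3 mice received 100 microlitres of phosphate-buffered saline intraperitoneally, and in the doxorubicin group 3 mice received doxorubicin, an anthracycline that poisons topoisomerase II, at 25 mg per kg in the same volume. Ventricular cells were taken after 48 hours by collagenase digestion and were enriched by gravity settling, not sorted. All 6 mice carried the reporter allele, there was no group without it, and the labels give neither age nor sex.

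An intercalated disc holds 3 kinds of contact. In the adherens junction N-cadherin (Cdh2) binds its counterpart on the next cell and is tied to actin through catenins. In the desmosome desmoglein-2 and desmocollin-2 (Dsg2, Dsc2) are linked by plakoglobin (Jup), plakophilin-2 (Pkp2) and desmoplakin (Dsp) to desmin filaments, and in gap junctions connexins, chiefly the product of Gja1, form the channels that carry the action potential between cells. The scaffold protein Tjp1 borders the gap junction plaques. Inherited defects of the desmosomal genes cause arrhythmogenic cardiomyopathy, and fewer or displaced Gja1 channels are a known feature of diseased myocardium.

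After doxorubicin 9 of the 10 genes had a lower mean and 1, Tjp1, a higher one, where 50.4% of all genes tested had a log2 fold change below 0. The means of Ctnna3, Gja1, Dsc2 and Dsp were 0.379, 0.433, 0.442 and 0.491 of the vehicle means, whereas those of Ctnna1 and Jup were 0.824 and 0.898. The median log2 fold change of the 10 genes was -0.83, against -0.0046 over all 12477 genes tested. With all 6 libraries none of these differences passed an adjusted p of 0.05. By limma, 0 of the 10 were called higher and 0 lower, and the same held for all genes (0.00% called in each direction). At an unadjusted p under 0.05, limma had 7 of the 10 lower and 0 higher, against 19.3% and 16.7% of all genes. These calls depended on doxorubicin replicate 1, the library nearest the vehicle group. Without it limma called 7 of the 10 lower (21.8% of all genes were) and 1, Tjp1, higher (19.3% of all genes), and only Jup and Ctnna1 passed in neither direction. With any other single library left out, limma called 0 of the 10. Replicate 1 was singled out on these same values, and its removal narrows the doxorubicin spread. The fits without it therefore describe a dependence and are no separate support. With libraries weighted by their own spread instead of left out, 7 of the 10 were called lower (18.6% of all genes) and 0 higher (15.7%). The weights came from these same 6 libraries and were lowest for doxorubicin replicates 1 and 3 (0.277 and 0.425).

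**Figure D1:**
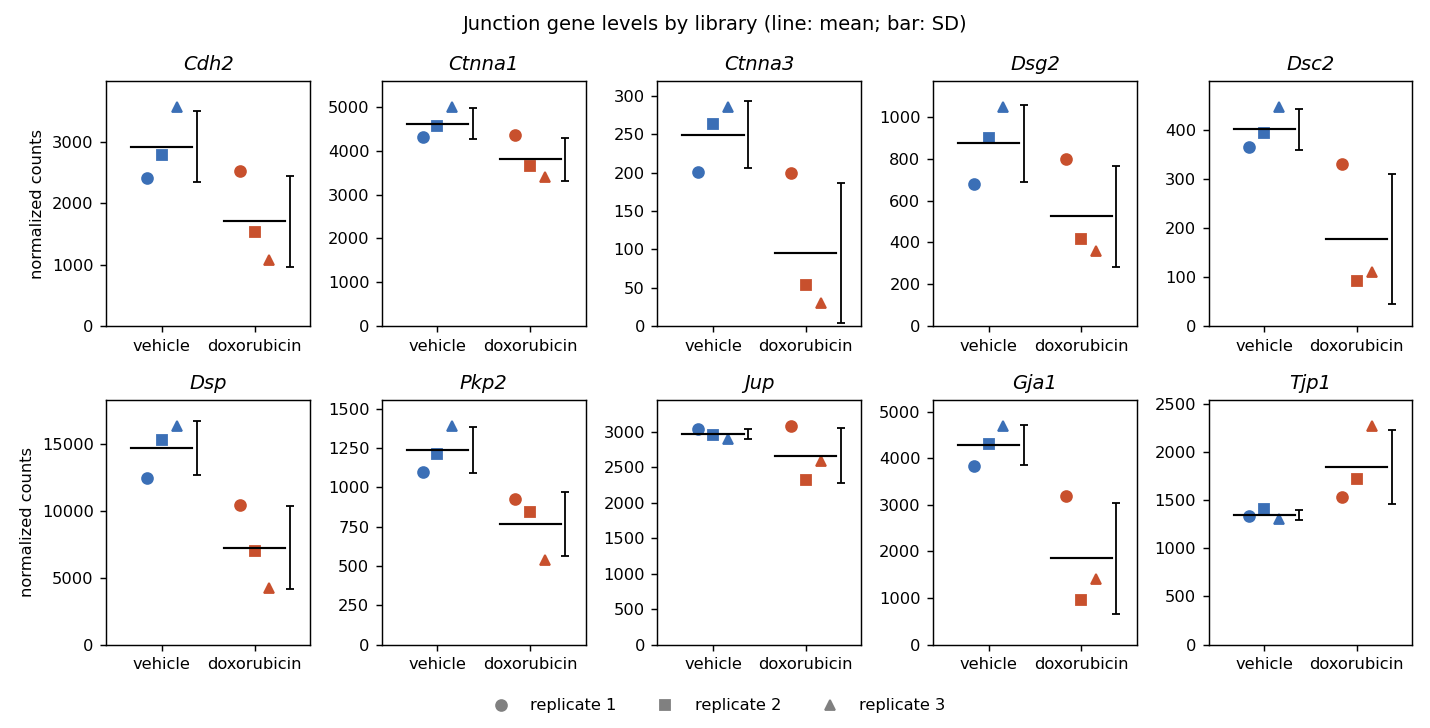
Normalized counts (vertical axis, starting at 0) of each junction gene in the 3 vehicle (blue) and 3 doxorubicin (orange) libraries, with symbols for replicate number, a line at the group mean and a bar for the SD. Doxorubicin replicate 1 (circle) lies nearest the vehicle libraries in 9 of the panels and above all of them in Jup, replicates 2 and 3 lie below every vehicle library in all panels except Tjp1, and in Tjp1 all 3 lie above.

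The RefSeq promoter table of GRCm38.p6 held 5 of the 10 genes (Gja1, Ctnna3, Dsp, Jup and Tjp1). Of these, sequence is shown for the 3 with the lowest log2 fold changes (Ctnna3, Gja1 and Dsp) and for Tjp1, the only one higher, and the 250 bases before each listed start are given 5′ to 3′ in the direction of the gene. The windows are chr10:56377050-56377299 (plus strand), chr10:63429848-63430097 (plus strand, the first of 3 listed starts), chr13:38151044-38151293 (plus strand) and chr7:65371245-65371494 (minus strand, a start inside the gene's longest span). Capitals mark matches on either strand to any of 8 motifs of factors active in heart muscle or at many promoters. The letters CATTCC were searched for TEAD factors. GATA factors were represented by the letters AGATAA, and T-box factors by the letters TCACAC. For Sp1, a general factor of GC-rich promoters, the letters were GGGCGG. The AP-1 motif was searched as TGANTCA and the NKX homeobox motif as TNAAGTG, in which N is any base. The MEF2 box and the SRF CArG box were also searched, and none of these motifs overlapped another in the windows shown.
Gja1: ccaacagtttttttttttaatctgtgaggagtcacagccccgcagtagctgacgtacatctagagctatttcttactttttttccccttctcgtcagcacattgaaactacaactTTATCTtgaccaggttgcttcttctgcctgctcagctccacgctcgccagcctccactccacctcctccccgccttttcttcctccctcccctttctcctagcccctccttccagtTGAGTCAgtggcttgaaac
Ctnna3: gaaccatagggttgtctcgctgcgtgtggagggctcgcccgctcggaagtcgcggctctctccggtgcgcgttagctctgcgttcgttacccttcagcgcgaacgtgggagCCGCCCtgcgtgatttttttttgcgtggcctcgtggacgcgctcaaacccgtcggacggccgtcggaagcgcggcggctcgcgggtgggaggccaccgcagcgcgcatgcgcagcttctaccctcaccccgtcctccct
Dsp: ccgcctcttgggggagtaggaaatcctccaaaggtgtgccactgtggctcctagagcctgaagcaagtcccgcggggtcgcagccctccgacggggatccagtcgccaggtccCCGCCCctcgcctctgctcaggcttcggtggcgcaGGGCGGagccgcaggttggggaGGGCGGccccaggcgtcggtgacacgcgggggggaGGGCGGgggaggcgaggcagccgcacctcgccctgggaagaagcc
Tjp1: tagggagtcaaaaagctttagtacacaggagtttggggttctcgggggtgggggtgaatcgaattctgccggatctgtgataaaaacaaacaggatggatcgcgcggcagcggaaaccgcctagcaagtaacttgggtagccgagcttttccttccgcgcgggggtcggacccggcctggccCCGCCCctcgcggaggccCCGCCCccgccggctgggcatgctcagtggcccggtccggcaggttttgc

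The Gja1 window held 1 AP-1 match and 1 GATA match, motifs found in 6.75% and 9.99% of all 32851 windows, and no Sp1 match. Dsp had 4 Sp1 matches, Tjp1 2, Ctnna3 1 in the window shown and Jup 2, and 32.7% of all windows had at least 1. The window of Gja1 had a GC content of 50.0%, those shown for Tjp1, Ctnna3 and Dsp 63.2%, 67.6% and 72.4%, and the median window 52.4%. The windows at the later Ctnna3 starts had GC contents of 44.8% and 45.6% and no Sp1 match. The former held 1 TEAD match, a motif found in 12.6% of all windows. Thus Sp1 letters occurred both in genes that were lower and in the gene that was higher. A match is a description of letters, not of binding.

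The adherens junction genes ranged from a marked to a slight difference. Cdh2 (chromosome 18, 16588877 to 16809246, GRCm38.p6), the classical cadherin of the disc, had 2419, 2792 and 3566 normalized counts in vehicle replicates 1 to 3, against 2525, 1536 and 1069 in doxorubicin replicates 1 to 3. Doxorubicin replicate 1 exceeded the lowest vehicle library, so the groups overlapped, while the other two lay below all of them. Cdh2 differed by -0.85 on the log2 scale (SE 0.32, adjusted p 0.111 by limma).

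Ctnna3 (chromosome 10, 63430098 to 65003667) encodes alphaT-catenin, the alpha-catenin largely restricted to heart and testis, which also binds Pkp2 and so joins adherens and desmosomal components. It had 200.3, 263 and 285 normalized counts in vehicle replicates 1 to 3, against 199, 54.1 and 30.6 in doxorubicin replicates 1 to 3. The groups did not overlap, but doxorubicin replicate 1 lay just under vehicle replicate 1. The log2 fold change of -1.82 (SE 0.60, adjusted p 0.0891 by limma) was the largest of the 10 in size, and without doxorubicin replicate 1 it was -2.57 (limma adjusted p 0.00044). Ctnna3 also had the lowest level per kilobase of the 10, and its lowest value corresponded to about 20.6 reads by the estimated worth of a read.

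Ctnna1 (chromosome 18, 35118902 to 35254776) encodes alphaE-catenin, the broadly expressed alpha-catenin. Its values were 4311 to 4994 in the vehicle libraries, against 4357, 3652 and 3408 in doxorubicin replicates 1 to 3. Replicate 1 fell within the vehicle range and the groups overlapped. Its difference of -0.29 on the log2 scale (SE 0.20, adjusted p 0.317 by limma) had a 95% interval of -0.74 to 0.17. Scaling the libraries to equal totals gave 0.017 (log2) and quantile normalization 0.12, so its direction depended on the scaling.

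Among the desmosomal genes both cadherins were lower. Dsg2 (chromosome 18, 20558074 to 20604526) had 680.4, 899 and 1047 normalized counts in vehicle replicates 1 to 3, against 799.9, 417 and 357 in doxorubicin replicates 1 to 3. The first doxorubicin library overlapped the vehicle range, and the log2 fold change was -0.81 (SE 0.32, adjusted p 0.117 by limma). Dsc2 (chromosome 18, 20030633 to 20059554) had 365, 393 and 446 in the vehicle libraries, against 329.7, 92.4 and 110.5 in doxorubicin replicates 1 to 3. All 3 doxorubicin values lay below all vehicle values, and replicates 2 and 3 held 23.0% and 27.5% of the vehicle mean. For Dsc2 the log2 fold change was -1.41 (SE 0.44, adjusted p 0.0863 by limma).

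Transcripts of the intracellular desmosome proteins were also measured. Dsp (chromosome 13, 38151294 to 38198577), the plakin that anchors desmin, had the highest vehicle level per kilobase of the 10, with 12454, 15259 and 16323 normalized counts in vehicle replicates 1 to 3, against 10431, 6957 and 4248 in doxorubicin replicates 1 to 3. The groups did not overlap, and the log2 fold change was -1.11 (SE 0.37, adjusted p 0.0891 by limma). Pkp2 (chromosome 16, 16213345 to 16272712), the armadillo protein of the cardiac plaque, had 1099, 1214 and 1391 against 926, 841 and 538. These did not overlap either, and differed by -0.72 on the log2 scale (SE 0.23, adjusted p 0.0878 by limma).

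Jup (chromosome 11, 100368856 to 100397839), the armadillo protein found in both desmosomes and adherens junctions, differed least. It had 3048, 2953 and 2908 normalized counts in vehicle replicates 1 to 3, against 3088, 2327 and 2589 in doxorubicin replicates 1 to 3. The highest of the 6 values was thus in a doxorubicin library. Jup differed by -0.16 on the log2 scale (SE 0.18, adjusted p 0.530 by limma), with a 95% interval of -0.58 to 0.26, and it was 0.14 with equal totals and 0.11 with quantile normalization.

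Gja1 (chromosome 10, 56377300 to 56390419), the main connexin of working ventricular muscle, had 3833, 4307 and 4697 normalized counts in vehicle replicates 1 to 3, against 3198, 958 and 1397 in doxorubicin replicates 1 to 3. Every doxorubicin library lay below every vehicle library, and replicates 2 and 3 held 22.4% and 32.7% of the vehicle mean. The log2 fold change was -1.39 (SE 0.41, adjusted p 0.0859 by limma) and, without doxorubicin replicate 1, -1.88 (limma adjusted p 0.000556). Tjp1 (chromosome 7, 65296165 to 65527850), the zonula occludens scaffold that binds the tail of the Gja1 product, had 1336, 1406 and 1309 against 1538, 1721 and 2277. All doxorubicin values lay above all vehicle values. The log2 fold change was 0.43 (SE 0.19, adjusted p 0.141 by limma), and 0.55 without doxorubicin replicate 1 (limma adjusted p 0.0335).

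In all, groups did not overlap in 5 of the 10 genes with lower values (Dsp, Dsc2, Pkp2, Ctnna3 and Gja1) and in 1 with higher values (Tjp1), against 22.6% and 19.2% of all genes tested. That is 6 of 10 in either direction, against 41.8%. Of doxorubicin replicates 2 and 3, replicate 3 had the lower value for Cdh2, Dsp, Dsg2, Pkp2, Ctnna1 and Ctnna3, and replicate 2 for Dsc2, Jup, Gja1 and Tjp1. The plot of differences by replicate shows these values alongside the intervals.

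**Figure D2:**
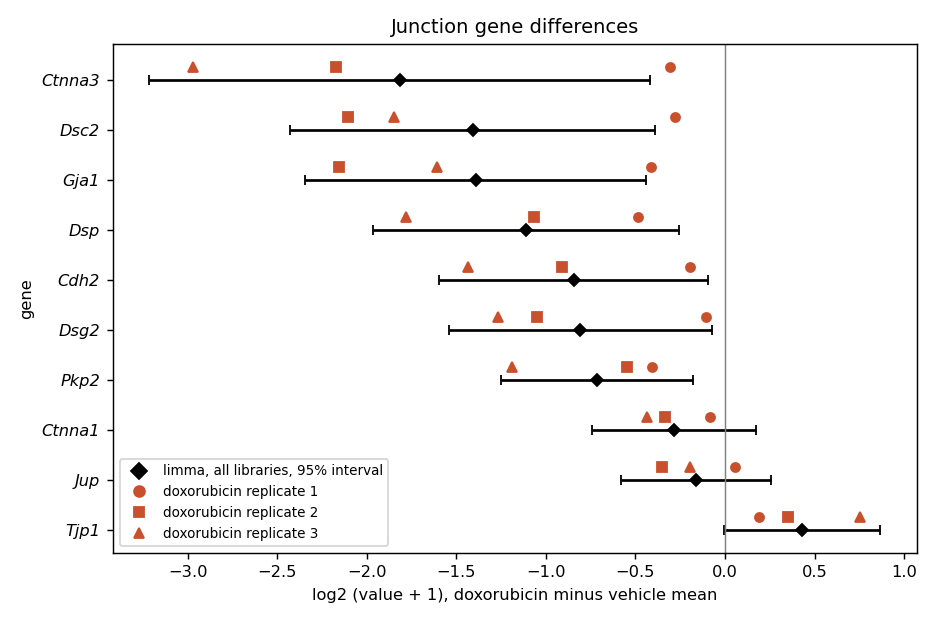
Log2(value + 1) difference from vehicle (horizontal axis) for each junction gene (vertical axis). Diamonds and bars are the limma estimate with all libraries and its 95% interval, and orange symbols are each doxorubicin library against the vehicle mean; the interval lies below 0 for 7 genes and spans 0 for Ctnna1, Jup and Tjp1.

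Transcripts of Xist and of the Y chromosome divided the libraries in another way than treatment. Vehicle replicates 1 and 2 and doxorubicin replicate 2 had Y-linked transcripts, and the other 3 libraries had Xist. The median log2 difference of the 10 genes was -0.83 within the first class and -1.05 within the second. Gja1 differed by -2.08 and -1.15, Dsc2 by -2.02 and -1.22, and Tjp1 by 0.33 and 0.52 in these classes. Each class holds a group with 1 library, so these within-class values carry no test. In a limma fit of all 6 libraries with the class as a covariate, the junction genes median log2 fold change was -0.94, 0 of the 10 passed an adjusted p of 0.05 and 7 had an unadjusted p under 0.05.

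Per kilobase of the longest protein-coding transcript, the 10 genes were led in the vehicle libraries by Dsp at 1530 ± 208, Gja1 at 1345 ± 136 and Ctnna1 at 1238 ± 92.6 normalized counts per kilobase (SD, n = 3). The libraries of these neighbours in the order overlapped. Below them Jup (927 ± 22.3), Cdh2 (604 ± 121), Pkp2 (423 ± 50.3), Tjp1 (192 ± 7.13), Dsg2 (152 ± 32.0), Dsc2 (86.7 ± 8.92) and Ctnna3 (67.7 ± 11.95) followed with no overlap between neighbours. After doxorubicin the mean level per kilobase was highest for Ctnna1 at 1019 ± 132, then Jup at 832 ± 121, followed by Dsp at 752 ± 323 and Gja1 at 582 ± 373. Neighbours in that order overlapped, apart from Tjp1 and Dsg2. The single transcript length stands in for the mixture of isoforms, which was not analysed here.

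Ratios of related genes within a library do not depend on how libraries were scaled. Gja1 is accompanied in ventricle by Gjc1, a minor connexin. The ratio of Gja1 to Gjc1 normalized counts was 23.6, 28.1 and 34.6 in vehicle replicates 1 to 3, against 20.6, 5.87 and 6.31 in doxorubicin replicates 1 to 3. The ratio was lower in every doxorubicin library, by 1.63 on the log2 scale on average (-1.63). Gjc1 itself had 136 to 163 normalized counts in the vehicle libraries, against 155, 163 and 221 in the doxorubicin ones. For the alpha-catenins the ratio of Ctnna3 to Ctnna1 was 0.0465, 0.0577 and 0.0571 in the vehicle libraries, against 0.0457, 0.0148 and 0.00898 after doxorubicin, a log2 difference of -1.53.

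Pkp2 and Pkp4 are armadillo proteins of one family, and Pkp4 is widely expressed and found at adherens junctions. The ratio of Pkp2 to Pkp4 was 0.889, 0.869 and 1.07 in vehicle replicates 1 to 3, against 0.603, 0.278 and 0.178 in doxorubicin replicates 1 to 3, a log2 difference of -1.59. Pkp4 differed in the opposite direction to Pkp2, from 1236 to 1398 in the vehicle libraries to 1536, 3029 and 3017 after doxorubicin (log2 fold change 0.88, limma adjusted p 0.0868). Dsg2 to Dsc2 went from 1.86, 2.29 and 2.35 to 2.43, 4.51 and 3.23, a log2 difference of 0.60. In these 4 pairs the groups did not overlap, although doxorubicin replicate 1 lay just past the nearest vehicle library for Ctnna3/Ctnna1 and Dsg2/Dsc2. In an exact two-sided permutation test each gave p = 0.1, the smallest that 3 libraries against 3 can give, and 0.15 after adjustment over the 6 pairs tested.

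The ratio of Jup to its close relative Ctnnb1 (beta-catenin) was 0.696, 0.673 and 0.685 in the vehicle libraries, against 0.624, 0.747 and 0.618 after doxorubicin. The groups overlapped, with a log2 difference of -0.052 (exact permutation p = 0.6, adjusted 0.6).

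**Figure D3:**
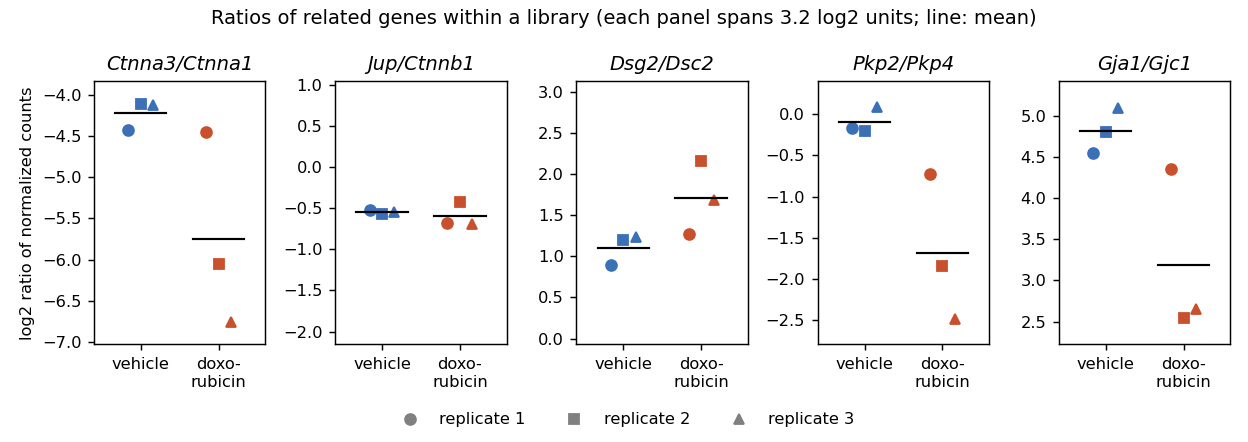
Log2 ratio of normalized counts of related genes within each library (vertical axis, the same span in each panel at its own offset), with symbols for replicate number and a line at the group mean. Ctnna3/Ctnna1, Pkp2/Pkp4 and Gja1/Gjc1 are lower and Dsg2/Dsc2 is higher in every doxorubicin library, while Jup/Ctnnb1 overlaps.

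Other genes of each junction were taken from lists of known components, and in each list 0 genes passed an adjusted p of 0.05 by limma. Of 12 further desmosome genes only Pkp4, Perp and Des had a mean of at least 10. The skin isoforms were at or near 0, with Pkp1, Dsg3 and Dsg1b listed at 0 in all libraries. Des, the intermediate filament protein tethered by Dsp, had 15720 to 17963 normalized counts in the vehicle libraries, against 11739, 13090 and 7087 after doxorubicin, without overlap (log2 fold change -0.70, limma adjusted p 0.162). Perp, a desmosomal membrane protein, had 1109.8 to 1235 against 773, 937 and 721, also without overlap (-0.56, limma adjusted p 0.0859).

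Among 16 tested adherens genes other than the members, 8 had a positive and 8 a negative log2 fold change, with a median of -0.029. The groups did not overlap in 5 higher and 3 lower genes of the 16, against 19.2% and 22.6% of all genes tested. Vcl (vinculin, which binds alpha-catenin under tension) was lower without overlap, at 1430 to 1666 normalized counts against 1417, 1029 and 1019 (log2 fold change -0.42, limma adjusted p 0.142). Ctnnd1 (the catenin that stabilises cadherins at the membrane) was higher without overlap, at 946 to 1158 against 1315, 1526 and 1945 (0.57, limma adjusted p 0.0897). Jcad, an endothelial cell-cell junction protein, had 1159 to 1434 against 1692, 2503 and 3100.2 (0.87, limma adjusted p 0.0859), and Cdh11, a cadherin of mesenchymal cells, 75.5 to 122 against 129, 148 and 165 (0.69, limma adjusted p 0.0878). Ctnnb1 overlapped, at 4245 to 4390 against 4950, 3116 and 4188 (-0.11, limma adjusted p 0.740), and its sign turned with equal totals (0.19), with quantile normalization (0.27) and without doxorubicin replicate 2 (0.070).

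Of 22 other connexins and pannexins, 5 had a mean of at least 10, 4 with positive and 1 with negative log2 fold changes (median 0.71). Without overlap 1 was higher and 1 lower, where the shares of all genes were 19.2% and 22.6%. Gja3 was the only other one lower without overlap, at 166 to 209 normalized counts against 146, 53.3 and 40.0 (log2 fold change -1.42, limma adjusted p 0.0860). Panx1, a large-pore membrane channel, was higher without overlap at a low level, from 5.21 to 14.5 against 14.8, 35.1 and 38.8 (1.59, limma adjusted p 0.0895). Gja5, the connexin of atrium, conduction system and arterial endothelium, overlapped, at 26.3 to 58.6 against 77.8, 38.5 and 112 (0.71, limma adjusted p 0.279).

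Of 11 tested genes of the scaffold and tight junction list, 7 had positive and 4 negative log2 fold changes, with a median of 0.089. Without overlap 5 were higher and 3 lower, where the shares of all genes were 19.2% and 22.6%. Cxadr, the coxsackievirus and adenovirus receptor that sits at the disc, was lower, at 343 to 414 normalized counts against 286, 136 and 96.4 (log2 fold change -1.28, limma adjusted p 0.0859). Magi2, a membrane-associated scaffold, was also lower (-0.99, limma adjusted p 0.0859). Cldn5, an endothelial claudin, was higher (0.77, limma adjusted p 0.0859).

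Genes of proteins associated with the disc were mostly lower. Of 19 tested, 17 had a negative log2 fold change, with a median of -1.12. Over all genes 50.4% had a negative value. There was no overlap between groups in 12 lower and 2 higher genes of the 19, against 22.6% and 19.2% of all genes. Without doxorubicin replicate 1 limma called 15 of them lower and 2 higher, against 21.8% and 19.3% of all genes. Kcnj2, the inward rectifier, had 323 to 492 against 279, 135 and 85.8 without overlap (-1.44, limma adjusted p 0.0859), and Xirp2, an actin-binding disc protein, 4756 to 7357 against 4415, 1665 and 1699 without overlap (-1.43, limma adjusted p 0.0859). Bves, a cyclic AMP-binding membrane protein, differed by a like amount (-1.43, limma adjusted p 0.0859), and Tmem65, which is needed for Gja1 placement, by -0.91 (limma adjusted p 0.0927).

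Xirp1 overlapped (-0.76, limma adjusted p 0.105), as did Nrap, an actin-anchoring disc protein (-0.44, limma adjusted p 0.290), whose difference was 0.0013 under quantile normalization. The 2 higher genes were Sptbn1, a spectrin, and Tmem43, a membrane protein mutated in a form of arrhythmogenic cardiomyopathy. Tmem43 had 170 to 205 normalized counts in the vehicle libraries, against 226, 378 and 373 after doxorubicin (0.75, limma adjusted p 0.0859).

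For 12 genes of connexin trafficking and turnover the median was -0.10, with 5 positive and 7 negative log2 fold changes. No overlap was seen in 3 lower genes of the 12, a share near the 22.6% of all genes, and in 0 higher genes (19.2% of all genes). The 3 were Wwp1, a ubiquitin ligase (-0.54), Prkce, a protein kinase C (-0.53), and Ubqln4, a ubiquilin (-0.50), with limma adjusted p of 0.0891, 0.108 and 0.121. Mapre1, the microtubule plus-end protein that guides channels to the disc, had a log2 fold change of 0.0026 (limma adjusted p 0.990). Of 11 beta-catenin target genes 6 were tested, 3 with positive and 3 with negative values and a median of 0.080. Of 9 YAP target genes 6 had positive and 3 negative values, with a median of 0.36. No overlap was seen in 4 higher and 0 lower genes of the 9, against 19.2% and 22.6% of all genes. The 3 named by the rule were Axl (1.31), Amotl2 (0.66) and Crim1 (0.49), each higher without overlap, with limma adjusted p of 0.0859, 0.0859 and 0.105. Cyr61, which overlapped, had the lowest value (-1.07, limma adjusted p 0.127).

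**Figure D4:**
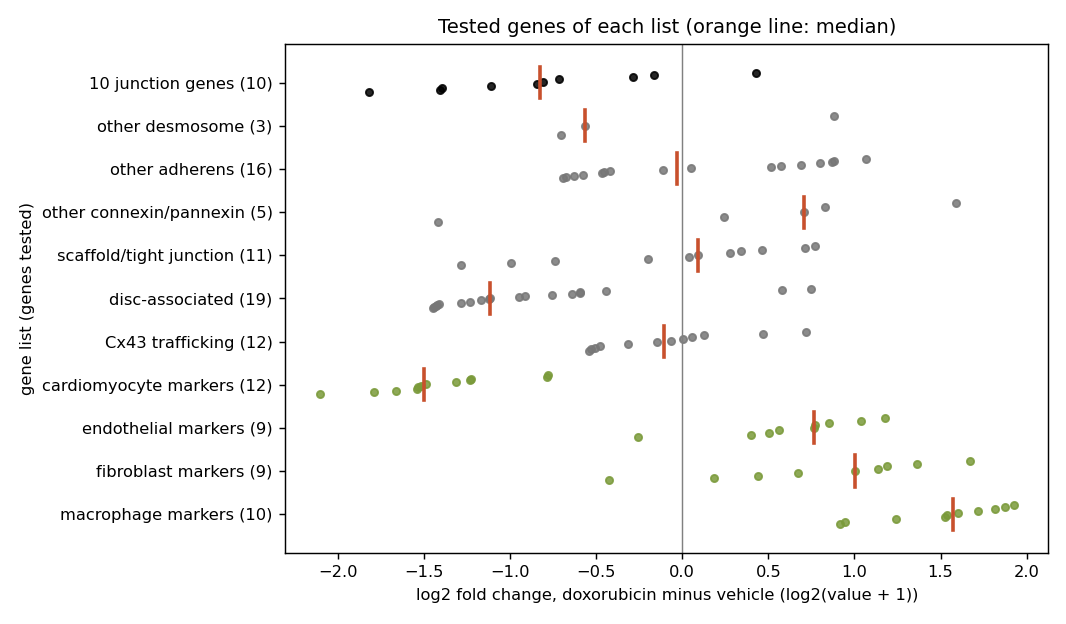
Log2 fold change of each tested gene (horizontal axis, log2(value + 1)) in the junction genes, in lists of other junction genes (grey) and in cell type marker lists (green), with an orange line at each median and the number tested in brackets. The medians are -0.83 for the junction genes, -1.12 for disc-associated genes and -1.50 for cardiomyocyte markers, and lie above 0 for endothelial, fibroblast and macrophage markers.

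Marker genes of the cell types the preparation could hold were summed in each library, and with all 6 libraries limma called 0 genes of any marker list. All 12 cardiomyocyte markers were present at high levels, and all 12 had negative log2 fold changes (-2.10 to -0.78, median -1.50). The 3 named by the rule were Actc1 (-2.10), Tnni3 (-1.66) and Mybpc3 (-1.53), all sarcomere genes. The summed level of the 12 markers was 760888 to 927356 normalized counts in the vehicle libraries, against 688541, 229773 and 195194 in doxorubicin replicates 1 to 3. Summed endothelial markers (9 genes, 8 positive, median 0.77) were 16276 to 22786 against 31056, 29824 and 39073, fibroblast markers (9 genes, 8 positive, median 1.01) 14342 to 17612 against 20869, 55722 and 44633, and macrophage markers (10 of 10 positive, median 1.57) 2489 to 2727 against 4149, 6801 and 15479. Mesothelial markers (7 of 7 positive, median 1.39) summed to 193 to 419 against 386, 818 and 709, and neutrophil markers (4 of 4 positive, median 4.09) to 9.88 to 20.8 against 50.8, 534 and 401, with Retnlg at 0 in all 3 vehicle libraries. Atrial markers (4 of 4 positive, median 0.91) summed to 456 to 526 in the vehicle libraries, against 1426, 368 and 692 in doxorubicin replicates 1 to 3. Erythroid markers (4 tested, 4 negative, median -0.85) summed to 1211 to 2104, against 9027, 249.8 and 421. In both lists doxorubicin replicate 1, on which the junction gene calls depended, had the highest sum of the 6 libraries. Mural markers (7 genes) had a median of -0.094, Schwann cell markers (2 tested) one of -0.15, and summed lymphocyte markers were 8.91 to 53.4 over the 6 libraries. In bulk RNA fewer cells of a type and less RNA per cell cannot be told apart, and the part of these shifts in the junction gene differences was not tested.

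Each junction gene was therefore also set against the mean log2 level of the 12 cardiomyocyte markers of its own library, a measure chosen after the data were seen. On this measure the median of all genes shifted to 1.40, and the 10 junction genes had a median of 0.59, with 8 positive and 2 negative. Gja1 and Dsc2 differed by 0.021 (95% interval -1.003 to 1.04) and -0.0020 (-1.22 to 1.22), that is, they were lower by about as much as the markers on average. Ctnna3 was lower than the markers by 0.42 (-0.42, interval -1.66 to 0.82). Dsp, Cdh2, Dsg2 and Pkp2 differed by 0.30, 0.57, 0.60 and 0.70, with intervals that included 0. Of these only Dsg2 was higher without overlap, and the share of all genes without overlap on this measure was not counted. Ctnna1, Jup and Tjp1 lay higher against the markers by 1.13, 1.25 and 1.84, without overlap. They passed limma at adjusted p of 0.0484, 0.0404 and 0.00741, where 45.1% of all genes were called higher and 0.136% lower. All genes of a library share the error of its marker mean here, while limma took the genes as independent when it estimated the variance. The intervals and calls on this measure therefore overstate the certainty that 3 libraries per group can give. Without doxorubicin replicate 1, 8 of the 10 passed on this measure, against 11716 of all 12477 genes, of which 11647 were higher. Nearly all genes thus passed. Of the 8, only Ctnna3 was lower (-0.64, limma adjusted p 0.0291).

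By the naming rule, the genes whose log2 values over the 6 libraries ran closest to the mean standardised profile of the 10 were Wnk2, Lrrc20, Pm20d2, Ttc3 and Prox1, with Pearson r of 0.999 to 1.00. Of 8215 candidates with a mean of at least 100, 1594 had an r above 0.9, and all points share the same 6 libraries, so this describes the profile only. Wnk2, a protein kinase, had 648, 856 and 1033 normalized counts in vehicle replicates 1 to 3, against 686, 210.1 and 178 in doxorubicin replicates 1 to 3. That pattern has doxorubicin replicate 1 inside the vehicle range and the other two below it, as Cdh2 and Dsg2 had.

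The deposited values summed to 7217949 to 7500386 in the vehicle libraries, against 5410780 to 6498373 in the doxorubicin libraries. Estimated from the spacing of low values, they rest on about 7730000 to 11400000 and 3640000 to 6160000 reads, so every doxorubicin library was shallower and depth and treatment cannot be told apart.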

How the data were processed

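RNA of ventricular cardiomyocytes from 3 vehicle and 3 doxorubicin mice was sequenced. Per the submitters' processing notes, STAR 2.6.1a and Salmon were used with mm10; per the series' design text, alignment to RefSeq and differential expression ran in BaseSpace. The deposited table holds normalized counts, treated here as a signal, and the authors' scaling method is not given in the sources used here. Median ratio scaling factors of the 6 columns were 1.01 each, so the columns were already level on that measure.

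Values were used as deposited. Genes with a mean of at least 10 were tested on log2(value + 1) with limma 3.58.1 (R 4.3.3), mean-dependent prior, two-sided, Benjamini-Hochberg adjusted over 12477 genes. The procedure was tested on simulated data with independent errors of equal spread in all 6 libraries. That setting has no deviating library such as doxorubicin replicate 1, so it does not bear on calls that depended on it. Fold changes are doxorubicin less vehicle in log2(value + 1), where the change of scarce genes comes out too small, and SD is over 3 libraries. A rule named the 10 members, 15 fixed companions, up to 3 genes of each list with the largest difference (mean at least 50, no overlap), and the 5 genes most alike. Genes it named in the marker lists of other cell types than cardiomyocytes are given only within sums, and 2 companions and 1 of the 6 ratios are not reported here. For 2 listed genes an older symbol was used (Cyr61, Ctgf). Ratios were tested by exact permutation (scipy 1.17.1). Lengths came from GENCODE M21 and coordinates from RefSeq GRCm38.p6. Members and lists were chosen with earlier results of these data known. Plots used matplotlib 3.10.9 in Python 3.11.15.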

Additional observations from a re-analysis of the deposited data

How the results depend on the processing

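Of 180 values of the 10 junction genes under the other planned settings and left-out libraries, 176 kept their direction and 4 changed it, and 15 passed 0.05. Scaling to the cardiomyocyte markers, given below, is not among the 180. Changing the minimum mean, dropping the mean-dependent prior, robust estimation and the replicate block left the fold changes as they were. Median ratio scaling hardly moved them, as all columns had the same factor. In these settings the direction could not change. The 4 were Jup and Ctnna1 with equal totals (0.14 and 0.017) and with quantile normalization (0.11 and 0.12). Ctnnb1 turned to 0.19 and 0.27 in these, and ranged from -0.26 to 0.070 with 1 library left out (positive only without doxorubicin replicate 2), and Nrap turned to 0.0013 with quantile normalization. With all 6 libraries at equal weight and no marker scaling, limma called 0 genes in every setting. Library weights, which gave doxorubicin replicates 1 and 3 weights of 0.277 and 0.425, gave 1954 genes higher and 2318 lower and 7 junction genes. Leaving out 1 library at a time gave 0 to 2409 genes higher, 0 to 2718 lower and 0 to 8 junction genes, with the highest numbers without doxorubicin replicate 1; without doxorubicin replicate 2 there was 1 gene lower. The junction genes' median was -1.16 to -0.56 in these fits, -0.53 with equal totals, which moved the median of all genes to 0.29, and -0.62 with quantile normalization. Scaling to the cardiomyocyte markers, added after the data were seen, gave 5623 genes higher, 17 lower, 3 junction genes and a junction median of 0.59. These calls overstate the certainty, as given above. Cdh2, Dsp, Dsg2, Pkp2, Jup, Ctnna1 and Gja1 turned to 0.57, 0.30, 0.60, 0.70, 1.25, 1.13 and 0.021 with this scaling. The ratios given above kept their direction at each pseudocount and without each library; without doxorubicin replicate 1 the largest in size was -2.22 (Gja1/Gjc1).

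Same-numbered libraries did not deviate together (correlations of -0.13, 0.033 and -0.093 across genes), and differently numbered ones gave -0.18 to 0.22. With 3 libraries per group this check cannot settle whether the numbers pair the mice. A replicate block left the junction median at -0.83, 0 junction genes and 0 genes higher or lower. Ctnna3, with about 20.6 reads in doxorubicin replicate 3, had the largest SE of the 10 with all libraries (0.60). Without doxorubicin replicate 1 its SE was 0.27, below that of Dsp (0.29). The part of depth in this was not tested.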
